A study of Homo sapiens with 96 samples.

Results

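The comparison described here set 12 libraries of MAPKi-treated A375 cells against 12 libraries of DMSO-treated cells, 24 of the 96 libraries in the series, and asked which mRNAs differed in the same way at every vehicle time. A375 is an established human melanoma cell line that grows through a mutated, constitutively active BRAF kinase. The MAPKi cells had been kept for 18 h in 500 nM vemurafenib, a BRAF inhibitor, together with 500 nM cobimetinib, a MEK inhibitor, and the DMSO cells for 18 h in solvent alone. Both then received solvent as the vehicle and were harvested 0, 1, 3 or 5 h later, 3 libraries per pretreatment and time. All libraries in the table of raw counts with these 2 pretreatments, the vehicle arm and these 4 times were members. No library with cycloheximide or triptolide was used. The methods describe 4 batches of culture and give harvests at 0, 3 and 5 h, without naming the 1 h time. If each time was 1 batch, a contrast within a time was also a contrast within a batch. A difference between times then cannot be told apart from a difference between batches. Whether MAPKi was still present during the vehicle hours, and whether the 3 libraries of a group came from separate cultures, is not stated. If they did not, the p-values measure only the spread between libraries, which may be technical.

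In this pathway RAS activates RAF kinases such as BRAF, RAF activates MEK, and MEK activates ERK, which enters the nucleus and drives growth-related transcription. ERK also switches on its own brakes, among them the dual specificity phosphatases (DUSP), Sprouty (SPRY) and SPRED proteins, whose mRNA levels are read as a gauge of pathway output. Downstream of ERK, cyclin D1 and the E2F factors lead cells into DNA synthesis. In melanoma cells the melanocyte factor MITF and its pigment genes, and lysosomal genes under related factors, are known to respond to the pathway.

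Levels are given as CPM, that is, counts per 1000000 counts of the library, after scaling by TMM (trimmed mean of M values). Changes are log2 of MAPKi over DMSO, from an edgeR fit with a single change common to the 4 times. This can differ from the mean of the 4 changes. Its standard error (SE) was computed as the size of the change divided by the square root of its F statistic. Calls required an adjusted p (Benjamini-Hochberg, over the 13454 genes tested) of less than 0.05. QuantSeq, the assay used, reads the 3′ end of polyadenylated RNA, and the RNA was cytoplasmic. In such bulk samples fewer cells of a type and less RNA per cell cannot be told apart. Total counts ran from 3719323 to 9609115 per library and did not separate the pretreatments (medians of 7544528 in DMSO and 6706790 in MAPKi, two-sided permutation p = 0.457, n = 12 per group). More genes had a count in MAPKi, 15735 to 17273 against 14926 to 16271 (p = 0.00042), and the mitochondrial rRNAs RNR1 and RNR2 took a larger share of counts, 3.67 to 5.33% against 2.36 to 3.63% (p = 1e-05, the smallest these 100000 permutations can give). These permutations shuffled all libraries without regard to time or replicate number, and so treat the 12 of a pretreatment as independent. The part of these differences in the results below was not tested. The first principal component carried 59.4% of the variance and held all MAPKi libraries on one side, from -63.5 to -52.9, and all DMSO libraries on the other, from 54.9 to 60.3. Markers of other cell types were low: the 7 endothelial markers together reached at most 2.50 CPM, the 7 fibroblast markers 8.15 CPM, and 4 of the 8 keratinocyte markers, 3 of the fibroblast, 3 of the endothelial and 5 of the 9 leukocyte markers had no count. The leukocyte list summed to 13.9 to 23.2 CPM in MAPKi and 2.04 to 8.16 in DMSO, and CD68, which encodes a lysosomal membrane protein, was its 1 member that passed the filter on low counts. The keratinocyte list summed to 113 to 176 CPM in MAPKi and 109 to 160 in DMSO, nearly all of it KRT10, and KRT14 was the 1 member called higher. The melanocyte lineage list summed to 5393 to 7286 CPM in MAPKi and 1504 to 1876 in DMSO. The pigment genes MLANA and TYR did not pass the filter.

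Over all vehicle times, 9715 genes were called, which is 72.2% of those tested. Of these, 5134 were higher in MAPKi (38.2% of genes tested) and 4581 were lower (34.0%). These shares are the background against which each gene list below has to be read. Many of the calls were small, since 3670 of them (37.8%) were under 1.5-fold and the median size of a called change was 0.75 on the log2 scale. When the change itself had to exceed 1.5-fold, 4424 genes remained called (32.9%), 2440 higher (18.1%) and 1984 lower (14.7%). Of these, 1915 and 1306 changed at least 2-fold. The 12 libraries of one pretreatment did not overlap the 12 of the other for 1587 genes that were higher in MAPKi (11.8%) and 1894 that were lower (14.1%). Scaling by total counts alone moved the median of all genes up by 0.11 on the log2 scale, from 0.06 to 0.17, and the share of calls that were higher from 52.8% to 60.2%, so that changes of that size depend on the scaling.

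The changes were alike at the 4 times. Each time has its own MAPKi and DMSO libraries, and across the 13454 genes the changes at 2 times correlated with a Pearson r of 0.80 (1 h with 5 h) to 0.87 (0 h with 1 h). This is a description across genes, which are not independent replicates. Of the genes called beyond 1.5-fold, 4402 of 4424 (99.5%) had the same sign at all 4 times, and of all called genes 9052 of 9715 (93.2%). Over all 13454 genes tested, 5118 were higher at all 4 times and 4511 were lower. The called genes were picked in the same libraries for their change over all times, which favours a single sign. Their shares are therefore no separate evidence of likeness. A contrast at a single time set 3 libraries against 3, with the spread estimated from all 24 libraries. Such contrasts called between 6721 (3 h) and 6946 genes (1 h). At each of the 4 times and in 1 direction, 4302 genes were called, 2054 higher and 2248 lower. Of these, 2729 were steady, meaning that their 4 changes spanned at most 0.5 on the log2 scale, and 925 steady genes changed at least 2-fold. Pooling the times added 849 genes that no single time called, with a median SE of 0.11 against 0.21 at 0 h alone.

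The feedback brakes of ERK had the lowest median change of the gene lists. Of 9 feedback inhibitors tested, 8 fell and 0 rose, with a list median of -3.18 on the log2 scale against 0.06 for all genes, and all 8 passed the 1.5-fold test. DUSP6, the phosphatase that acts on ERK (GRCh38 chromosome 12, 89347235 to 89352501, minus strand), had 237, 338 and 507 CPM (lowest, median and highest of 12 libraries) in DMSO. In MAPKi it had 0.371, 1.75 and 6.40 CPM, so that the highest MAPKi library lay far below the lowest DMSO one (log2 change -7.14 ± 0.20 SE, adjusted p = 5.4e-23). SPRY4, an inhibitor of receptor signalling to RAS, went from 61.5, 106 and 149 CPM to 0, 0.492 and 1.02 CPM, with 37 counts left in all 12 MAPKi libraries together. DUSP4, a nuclear ERK phosphatase, kept more of its level, with 158, 215 and 250 CPM in DMSO and 12.9, 23.5 and 36.8 CPM in MAPKi (log2 change -3.18 ± 0.10 SE). SPRED3 was the member not called (named, like FOS and RNASEH2C below, after its value was seen).

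Most transcription factors and growth genes that depend on ERK fell too. Of 17 tested, 13 fell, 2 rose and 2 were not called (list median -2.50), and 12 of the falls passed the 1.5-fold test. ETV4, an ETS-family factor (chromosome 17, 43527844 to 43579620, antisense to DHX8), had 97.7, 114 and 124 CPM in DMSO and 1.19, 2.84 and 5.00 CPM in MAPKi. ETV5, its close relative, changed by -5.97 ± 0.13 SE, and its 4 changes lay within 0.40 of each other. PHLDA1 changed by -2.06 ± 0.08 SE, and MYC by -2.91 ± 0.33 SE from a low level, at most 8.90 CPM in DMSO. Whether the counting used strand is not stated, so reads of a gene and of one antisense to it, such as ETV4 and DHX8, may not be told apart. ETV5 and DGKG overlap on the same strand, where strand does not tell their reads apart under either setting. The rises were those of FOS and JUN, partners in the AP-1 factor, and JUNB and SPHK1 were the members not called (JUNB and SPHK1 were named after their values were seen). JUN (chromosome 1, 58776845 to 58784048) had 20.8, 40.05 and 61.8 CPM in DMSO and 216, 262 and 319 CPM in MAPKi without overlap (log2 change 2.69 ± 0.13 SE, adjusted p = 1.6e-17). FOSL1, which encodes another AP-1 partner, went the other way, from 89.2, 112 and 135 CPM to 10.6, 17.8 and 37.0 CPM.

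The kinases of the cascade itself changed little beside their outputs. Of 22 cascade genes tested, 11 rose and 5 fell, but only 4 and 1 passed the 1.5-fold test, and the list median was 0.16. BRAF, the target of vemurafenib, had 18.2, 19.1 and 21.6 CPM in DMSO and 20.2, 26.4 and 30.8 CPM in MAPKi, groups that overlapped (log2 change 0.44 ± 0.07 SE, adjusted p = 1.2e-06). KSR2, a scaffold for RAF and MEK, had the largest rise at 3.06 ± 0.29 SE and reached at most 8.16 CPM. MAP2K1, which encodes a target of cobimetinib, changed by -0.66 ± 0.26 SE (adjusted p = 0.026), a call that was lost without replicate 2 (-0.58, adjusted p = 0.095), without replicate 3 (-0.59, adjusted p = 0.089) and with total counts (-0.54, adjusted p = 0.072). At 5 h alone it was 0.55.

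Receptors and ligands split. Of 27 receptor tyrosine kinases and ligands tested, 11 rose and 13 fell, and the median of -0.13 lay close to that of all genes. TGFA, a ligand of the EGF receptor (chromosome 2, 70447284 to 70554193), fell from 186, 237 and 277 CPM to 6.22, 8.45 and 14.0 CPM (log2 change -4.73 ± 0.09 SE, adjusted p = 5.1e-27). Its receptor EGFR went from 3.29, 4.15 and 7.34 CPM to 0.170, 1.04 and 2.42 CPM. ERBB3, the receptor for neuregulins (chromosome 12, 56076799 to 56103505), rose from 151, 184 and 215 CPM to 339, 406 and 507 CPM, and its changes at 0, 1, 3 and 5 h were 1.22, 1.17, 1.19 and 1.17. That is one of the most even rises in the data, in both pretreatments on levels that were lower at 3 and 5 h. FGFR3 rose by 2.89 ± 0.28 SE and PDGFRB by 2.16 ± 0.39 SE, both from medians near 1 CPM or below. AXL, a receptor often named in resistance to these drugs, changed by 0.41 ± 0.09 SE and overlapped between pretreatments.

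**Figure D1:**
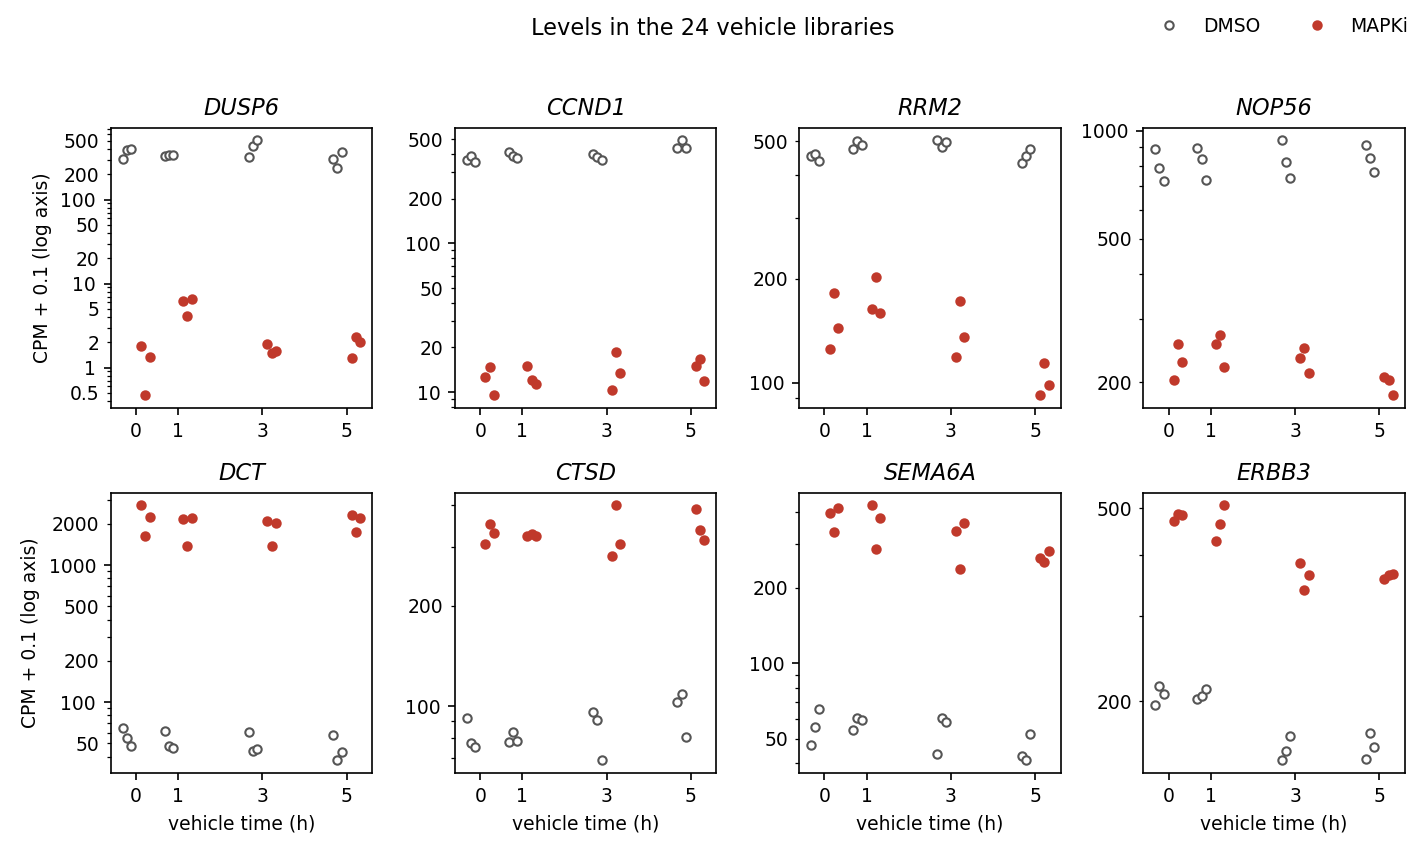
Level of 8 genes in each of the 24 vehicle libraries, as CPM plus 0.1 on a log axis, against vehicle time in hours, with open grey circles for DMSO and filled red circles for MAPKi; each circle is 1 library, 3 per group. In every panel the 12 MAPKi libraries sit on one side of the 12 DMSO libraries at all times, such as DUSP6 at 0.371 to 6.40 CPM against 237 to 507 CPM and DCT at 1369 to 2729 CPM against 37.7 to 65.0 CPM.

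Most genes that carry cells from G1 into S phase fell. Of 24 cyclins, kinases, inhibitors and E2F genes tested, 18 fell and 5 rose (list median -0.85), and the 5 rises were all genes that restrain the cycle or partner with E2F (CDKN2C, CDKN1A, RBL2, TFDP2 and CDKN1B, named after their values were seen). CCND1, which encodes cyclin D1 (chromosome 11, 69641156 to 69654474), had 353, 387 and 492 CPM in DMSO and 9.44, 12.97 and 18.6 CPM in MAPKi. Its changes at the 4 times were -4.92, -4.95, -4.80 and -4.998, and the common change of -4.92 ± 0.08 SE had an adjusted p of 2.2e-28. E2F1, which activates S-phase genes, had 48.7, 58.7 and 68.7 CPM in DMSO and 12.3, 17.0 and 28.9 CPM in MAPKi. CDKN2C, which encodes the CDK4/6 inhibitor p18, rose from 11.5, 17.5 and 21.9 CPM to 45.7, 58.3 and 77.1 CPM, and CDKN1B (p27) changed by 0.38 ± 0.08 SE, with overlap.

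Nearly all replication genes were lower. Of 57 DNA replication genes tested, 55 fell and 2 rose, 38 fell by more than 1.5-fold, and the median was -1.05. POLE, the catalytic subunit of the leading-strand polymerase (chromosome 12, 132623753 to 132687376), fell furthest, from 48.5, 55.7 and 64.3 CPM to 3.33, 5.22 and 7.79 CPM (log2 change -3.44 ± 0.10 SE, adjusted p = 5.6e-22). CDC6, a loader of the replicative helicase, changed by -1.72 ± 0.09 SE, PCNA, the sliding clamp, by -1.41 ± 0.08 SE and MCM2, a helicase subunit, by -1.19 ± 0.11 SE. One of the 2 rises was POLD4, the small subunit of the lagging-strand polymerase, from 25.5, 30.3 and 37.1 CPM to 91.2, 100.6 and 120 CPM, without overlap. The other was RNASEH2C. Nucleotide and one-carbon synthesis followed, with 27 of 29 lower, 1 higher and a median of -1.06. RRM2, the regulatory subunit of ribonucleotide reductase, had 432, 474 and 502 CPM in DMSO and 91.8, 139 and 201.3 CPM in MAPKi. MTHFD2, a mitochondrial one-carbon enzyme (chromosome 2, 74186172 to 74217565), fell from 173, 220 and 255 CPM to 52.4, 58.7 and 70.0 CPM, and its 4 changes lay between -1.92 and -1.87. CAD, which starts pyrimidine synthesis, changed by -1.36 ± 0.07 SE and TYMS, thymidylate synthase, by -0.85 ± 0.06 SE. The single rise, IMPDH2 at 0.11 ± 0.04 SE, was lost without replicate 2 (0.10, adjusted p = 0.072) and without replicate 3 (0.10, adjusted p = 0.12).

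Mitosis genes fell less than replication genes. Of 60 tested, 54 fell and 1 rose, 25 of them beyond 1.5-fold, and the median was -0.63. CDC25A, the phosphatase that activates cyclin-dependent kinases (chromosome 3, 48157146 to 48188417), had 80.2, 91.4 and 101.4 CPM in DMSO and 7.35, 13.7 and 22.1 CPM in MAPKi (log2 change -2.70 ± 0.10 SE). CCNB1, which encodes cyclin B1, changed by -1.003 ± 0.05 SE and CDK1, its kinase, by -0.95 ± 0.04 SE, from 137, 159 and 182 CPM to 68.4, 83.8 and 87.3 CPM. The single rise was KIF20A at 0.35 ± 0.11 SE, lost without replicate 1 (0.23, adjusted p = 0.15). In repair, 32 of 41 homologous recombination and Fanconi genes fell and 2 rose (median -0.80), whereas 24 of 43 excision, mismatch and end-joining genes fell and 6 rose (median -0.27). XRCC2, a recombination factor, changed by -1.87 ± 0.10 SE and BRCA1 by -0.94 ± 0.06 SE. Among excision genes UNG, which removes uracil from DNA, changed by -1.83 ± 0.10 SE. PARP1 changed by -0.22 ± 0.06 SE, with overlap, and with total counts it was -0.11 (adjusted p = 0.057).

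Promoters from 2 lists that mostly fell (replication and mitosis) and 2 that mostly rose (lysosome and melanocyte) are shown because most of their members moved together. They are stretches of 100 bases from RefSeq windows of 300 bases (250 before and 50 after a transcript start, GRCh38.p14), written on the strand of the gene with the matches to the string named beside the gene in capitals and any other string left in lower case. A window was found for 10209 of the 13454 tested genes, and where a gene had several, the first listed was used. The strings searched on both strands were TTTCCCGC and TTTGGCGC for E2F, TTTGAA for CHR (a cell cycle element), CCAAT, and TCACGTGA for CLEAR (a lysosomal element). Further strings were CCGGAAG for ETS, TGACGTCA for CRE (a cAMP element), TGACTCA for AP-1 and TCACNCCAC for a sterol element. CATGTG, for the E-box of pigment genes, was added to the planned strings later. The CArG box of SRF was also searched, and the plan did not list it by that name.
CDC6, E2F, chr17:40287829-40287928, plus strand: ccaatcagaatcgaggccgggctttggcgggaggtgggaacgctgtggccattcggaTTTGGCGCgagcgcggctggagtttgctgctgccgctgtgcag
POLE, E2F, chr12:132687301-132687400, minus strand: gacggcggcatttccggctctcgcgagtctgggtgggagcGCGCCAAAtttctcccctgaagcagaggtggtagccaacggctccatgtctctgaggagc
CDK1, CHR, chr10:60778130-60778229, plus strand: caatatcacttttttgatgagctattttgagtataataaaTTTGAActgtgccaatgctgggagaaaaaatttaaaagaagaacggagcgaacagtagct
LAMP1, CLEAR, chr13:113297170-113297269, plus strand: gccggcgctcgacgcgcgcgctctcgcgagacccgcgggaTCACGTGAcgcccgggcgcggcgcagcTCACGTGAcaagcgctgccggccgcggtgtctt
TYRP1, E-box, chr9:12693201-12693300, plus strand: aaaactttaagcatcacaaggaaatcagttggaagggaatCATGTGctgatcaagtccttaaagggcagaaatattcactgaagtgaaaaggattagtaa

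An E2F string stood in 18 of 50 replication promoters (36.0%), against 3.74% of all tested promoters, and in 4.87% of those of genes lower beyond 1.5-fold and 2.30% of those higher. The CHR string stood in 31 of 50 mitosis promoters (62.0%, all tested 9.85%) and CCAAT in 35 of them (70.0%, all tested 37.4%). CLEAR stood in 6 of 35 lysosome and autophagy promoters (17.1%, all tested 1.90%), the E-box in 5 of 14 melanocyte promoters (35.7%, all tested 6.88%) and the CArG box in 6 of 24 SRF and YAP promoters (25.0%, all tested 1.07%). The sterol element stood in 1 of 24 cholesterol promoters (4.17%, all tested 1.09%). AP-1 stood in 1 of 7 feedback and 1 of 11 ERK-responsive promoters (all tested 3.01%), and CRE in 1 of 18 ATF4 promoters (5.56%, all tested 3.22%). ETS, against 19.2% of all tested, stood in 0 of 7 feedback and 1 of 11 ERK-responsive promoters, in 12 of 39 of ribosome biogenesis (30.8%), 12 of 26 of tRNA synthetases (46.2%) and 12 of 36 of recombination (33.3%). Over genes lower beyond 1.5-fold ETS stood in 17.4% of promoters and over genes higher in 11.4%. The lists were gathered by function, so these shares describe the lists and not the binding of any factor.

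Ribosome biogenesis had the highest share of members lower among the lists. Of 48 ribosome biogenesis genes tested, 47 fell and 0 rose, 45 fell by more than 1.5-fold, 45 showed no overlap between pretreatments, and 36 were steady. The list median was -1.34, with medians at 0, 1, 3 and 5 h of -1.34, -1.31, -1.39 and -1.41. LYAR, a nucleolar protein (chromosome 4, 4267701 to 4290154), had a median of 402 and a highest value of 437 CPM in DMSO and 56.3, 69.2 and 86.5 CPM (lowest, median, highest) in MAPKi, without overlap (log2 change -2.53 ± 0.06 SE, adjusted p = 4.1e-24). NOP56, a core protein of box C/D particles that guide rRNA methylation (chromosome 20, 2652593 to 2658393, with snoRNA genes inside it), had 727, 826 and 940 CPM against 184, 224 and 270 CPM. FBL, the methyltransferase of the same particle, was counted at 0.473 to 5.29 CPM in DMSO and has a repeated entry among which reads can be split, so its change of -0.90 ± 0.35 SE is uncertain. It was lost without replicate 1 (-0.54, adjusted p = 0.30) and without replicate 3 (-0.79, adjusted p = 0.16), and at 1 h alone it was 0.14. The mRNAs of tRNA synthetase and wobble modification genes moved less, with 26 of 32 lower and 1 higher. Of these, 11 were lower beyond 1.5-fold, and the list median was -0.51. The charging of tRNAs was not measured. EEF1E1, a scaffold of the synthetase complex, changed by -1.65 ± 0.11 SE and CTU2, which thiolates the wobble uridine, by -1.13 ± 0.10 SE. The single rise was QARS1, glutaminyl-tRNA synthetase, from 129, 144 and 162 CPM to 209, 237 and 255 CPM.

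**Figure D2:**
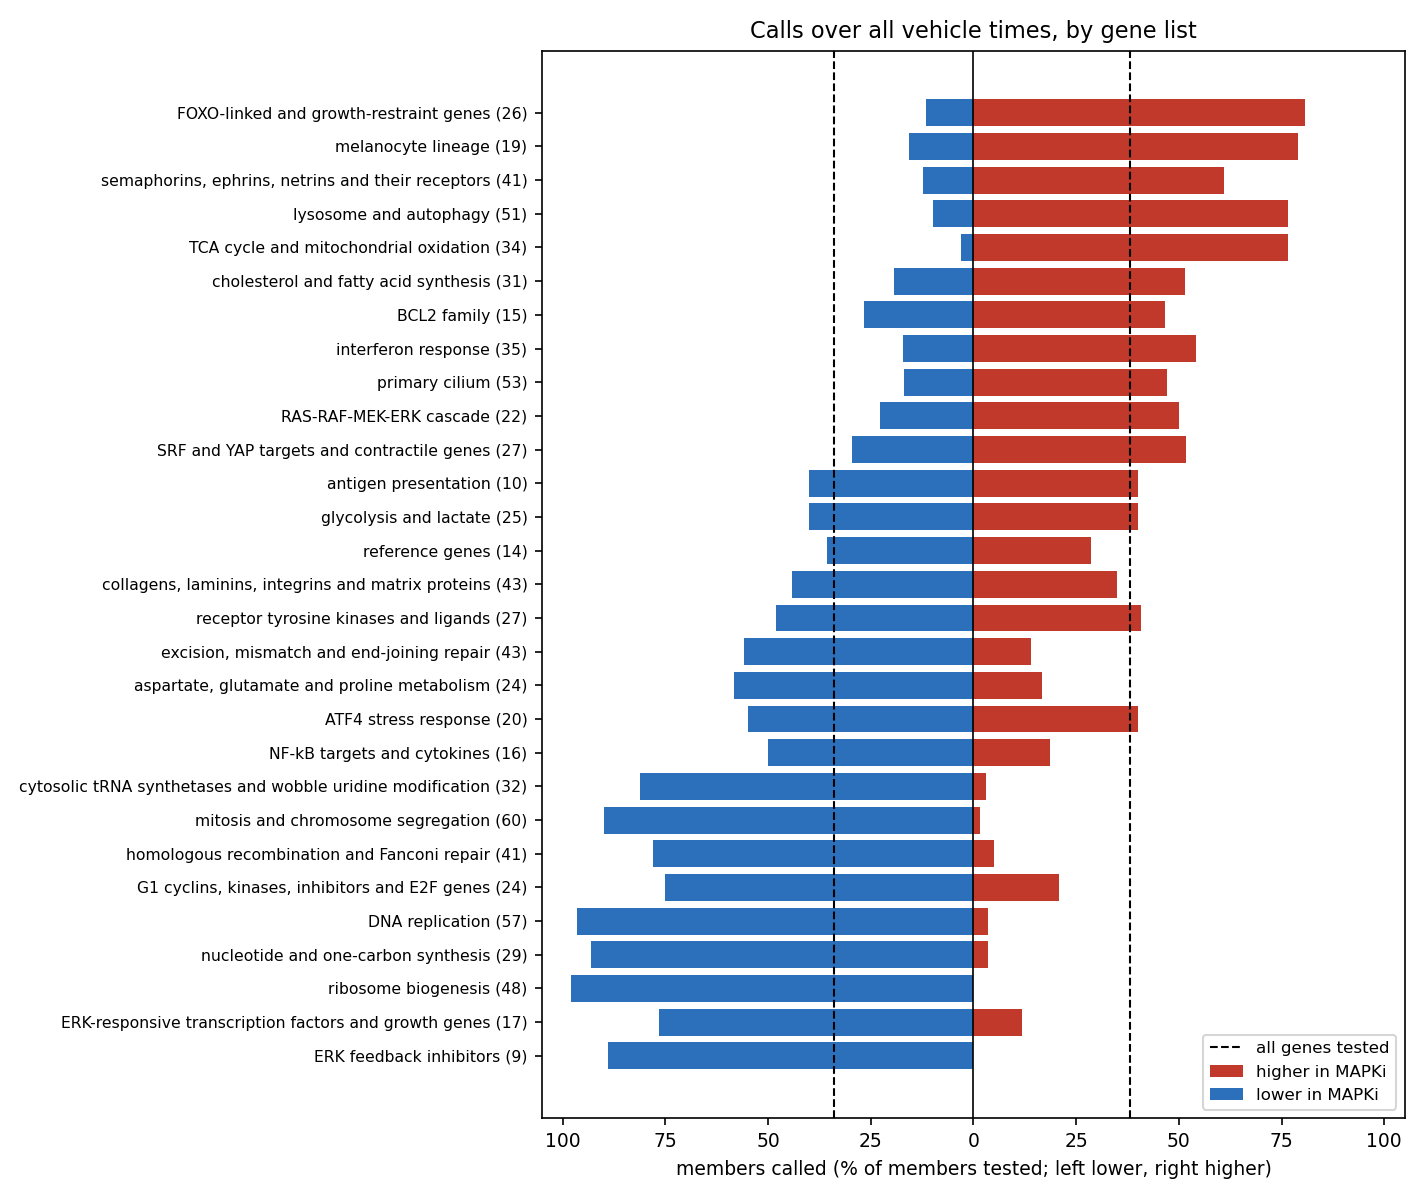
For each gene list with at least 9 tested members (number tested in brackets), the share of members called higher in MAPKi, as red bars to the right, and lower, as blue bars to the left, in percent of members tested; dashed lines mark the 38.2% higher and 34.0% lower of all genes tested. Ribosome biogenesis and DNA replication reach 97.9% and 96.5% lower, and growth-restraint genes 80.8% higher.

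Amino acid and stress metabolism was mixed. Of 24 aspartate, glutamate and proline genes tested, 14 fell and 4 rose (median -0.33). SLC38A1, a glutamine transporter, fell from 62.9, 74.5 and 84.5 CPM to 11.9, 16.1 and 23.3 CPM. GOT1, the cytosolic enzyme that links aspartate and glutamate, rose from 37.4, 43.9 and 51.5 CPM to 62.4, 71.8 and 85.4 CPM without overlap, and GLUL, glutamine synthetase, changed by 0.64 ± 0.10 SE. ASNS had 2 counts in MAPKi and 0 in DMSO. It overlaps another annotated gene on the same strand, and whether reads were lost to that was not tested, so ASNS could not be assessed. Of 20 ATF4 stress genes, 11 fell and 8 rose. GDF15, a secreted stress factor (chromosome 19, 18374731 to 18389176), went from 296, 445 and 604 CPM to 15.6, 36.6 and 56.0 CPM (log2 change -3.68 ± 0.11 SE), and TRIB3 changed by -1.34 ± 0.09 SE. NUPR1, a chromatin protein induced by stress, went up by 4.11 ± 0.18 SE from at most 1.70 CPM to 10.4, 16.3 and 26.6 CPM.

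Among energy pathways the TCA cycle and mitochondrial oxidation rose in small steps. Of 34 genes tested, 26 rose and 1 fell, 8 and 1 of them beyond 1.5-fold, with a median of 0.39. The only fall was PPARGC1B, a coactivator of mitochondrial genes, from 13.9, 16.4 and 21.6 CPM to 1.36, 2.45 and 4.96 CPM. Its paralog PPARGC1A (chromosome 4, 23755041 to 23904089) had the largest rise, from 5.27, 10.2 and 14.2 CPM to 32.7, 61.4 and 97.0 CPM (log2 change 2.69 ± 0.12 SE, adjusted p = 5.1e-18). CPT1A, which admits fatty acids into mitochondria, changed by 0.78 ± 0.07 SE. Mitochondrial rRNA also took a larger share of reads in MAPKi, as given above, and its part in these rises was not tested. Glycolysis was even, with 10 of 25 genes higher and 10 lower. SLC2A3, a glucose transporter, changed by -2.37 ± 0.11 SE and ALDOC, the brain-type aldolase, by 1.89 ± 0.08 SE, and the usual glucose transporter SLC2A1 and hexokinase HK2 changed by -0.82 ± 0.08 SE and -0.88 ± 0.13 SE. LDHA had close to no counts in any library and has a repeated entry, so it could not be assessed. In cholesterol and fatty acid synthesis, 16 of 31 genes rose and 6 fell (median 0.30). TM7SF2, a sterol reductase (chromosome 11, 65111845 to 65116384, overlapped by VPS51 on the same strand), changed by 2.77 ± 0.13 SE.

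Lysosome and autophagy genes rose together. Of 51 tested, 39 rose and 5 fell, 21 and 1 of them beyond 1.5-fold, with a median of 0.57 and medians of 0.59, 0.54, 0.55 and 0.71 at 0, 1, 3 and 5 h. CTSD, a lysosomal protease (chromosome 11, 1752752 to 1764573), had 68.8, 82.3 and 108 CPM in DMSO and 281, 326 and 400 CPM in MAPKi (log2 change 1.96 ± 0.07 SE, adjusted p = 6.2e-21). GABARAPL1, which coats autophagosomes, rose from 16.9, 29.8 and 45.2 CPM to 67.1, 87.5 and 110 CPM, and LAMP1, a lysosomal membrane protein, changed by 0.35 ± 0.05 SE, with overlap. BECN1, a starter of autophagy, was the largest fall, from 297, 361 and 370 CPM to 189, 213 and 233 CPM. Of 26 FOXO-linked and growth-restraint genes, 21 rose and 3 fell, 17 and 2 of them beyond 1.5-fold, with a median of 1.00. PIK3IP1, an inhibitor of PI3 kinase, had the largest fitted rise, 3.56 ± 0.40 SE, from at most 0.631 CPM to 1.298, 1.93 and 3.16 CPM. IRS2, an insulin receptor adaptor, rose from 256, 351 and 540 CPM to 555, 673 and 935 CPM without overlap. KLF4 was the largest fall of the list at -2.26 ± 0.34 SE.

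Melanocyte lineage genes were higher. Of 19 tested, 15 rose and 3 fell (median 0.78), 9 and 1 of them beyond 1.5-fold. DCT, an enzyme of melanin synthesis (chromosome 13, 94436811 to 94479682), had 37.7, 47.9 and 65.0 CPM in DMSO and 1369, 2147 and 2729 CPM in MAPKi. This is 39.6-fold, and its changes of 5.32, 5.22, 5.21 and 5.51 at 0, 1, 3 and 5 h were close (adjusted p = 1.9e-25). PMEL, which forms the fibrils of melanosomes, went from 0.644, 1.25 and 2.29 CPM to 7.68, 15.0 and 26.0 CPM. Their regulators moved much less. MITF changed by 0.67 ± 0.09 SE and SOX10, which acts upstream of it, by 0.78 ± 0.08 SE, and both overlapped between pretreatments. In the BCL2 family, which sets the threshold of apoptosis, 7 of 15 genes rose and 4 fell. BMF, a killer member (chromosome 15, 40087890 to 40108892, overlapped by BMF-AS1), changed by 6.33 ± 0.25 SE, to 26.6, 50.9 and 63.8 CPM from at most 1.56 CPM. PMAIP1, another killer member, fell from 21.4, 35.0 and 46.8 CPM to 0.556, 2.44 and 4.87 CPM, and MCL1, a survival member, from 155, 218 and 258 CPM to 67.1, 86.5 and 104 CPM. BCL2L11 changed by 0.43 ± 0.13 SE and was no longer called without replicate 1 (0.30, adjusted p = 0.077) and without replicate 3 (0.36, adjusted p = 0.074).

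Immune lists were less clear. Of 35 interferon response genes tested, 19 rose and 6 fell (median 0.25), 13 and 2 of them beyond 1.5-fold. ISG15, a ubiquitin-like protein, rose from 17.4, 19.0 and 23.2 CPM to 32.1, 44.2 and 59.9 CPM. Of the 34 antigen presentation genes, 10 were tested, with 4 higher and 4 lower, and 23 of the 34 have repeated entries for alternate copies of their locus, so that the HLA genes could not be assessed. CIITA, the switch for class II genes, fell from 27.6, 39.5 and 56.6 CPM to 2.70, 7.18 and 13.1 CPM, and CD74, the class II chaperone, from 460, 486 and 569 CPM to 309, 366 and 405 CPM. B2M has a repeated entry and at most 2.07 CPM, and its change of 0.72 ± 0.31 SE was lost without replicate 1 (0.60, adjusted p = 0.23) and without replicate 2 (0.67, adjusted p = 0.12). Of 16 NF-kB genes and cytokines, 8 fell and 3 rose (median -0.40). CXCL8, a neutrophil attractant, was low in DMSO, with 0, 1.40 and 2.68 CPM, and had 7 counts in all 12 MAPKi libraries.

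Adhesion and the cytoskeleton changed in both directions. Of 43 collagens, laminins, integrins and matrix genes tested, 19 fell and 15 rose. ITGB3, an integrin subunit (chromosome 17, 47253827 to 47313743), fell from 291, 356 and 437 CPM to 14.1, 21.4 and 26.7 CPM (log2 change -4.11 ± 0.09 SE, adjusted p = 3.7e-25). COL5A2, a fibrillar collagen, rose from 9.05, 13.3 and 16.6 CPM to 79.8, 101.5 and 122 CPM, THBS1 changed by -0.74 ± 0.06 SE, and FN1, fibronectin, was not called (-0.07 ± 0.05 SE, adjusted p = 0.23). Of 27 SRF and YAP targets and contractile genes, 14 rose and 8 fell. MYLK, the kinase that starts smooth muscle contraction (chromosome 3, 123610049 to 123884332), rose from 7.89, 14.8 and 19.3 CPM to 426, 686 and 911 CPM, whereas ANKRD1, a YAP target, fell from a wide range of 0.427 to 60.9 CPM to at most 3.21 CPM. CCN1, another YAP target, ranged from 3.20 to 157 CPM in DMSO and from 3.89 to 129 CPM in MAPKi and was not called (0.13 ± 0.28 SE, adjusted p = 0.69).

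Guidance molecules were mostly higher. Of 41 semaphorins, ephrins, netrins and their receptors tested, 25 rose and 5 fell, 17 and 2 of them beyond 1.5-fold, with a median of 0.64. SEMA3C, a secreted semaphorin (chromosome 7, 80742538 to 80922359), rose from 10.2, 16.4 and 21.7 CPM to 167, 217 and 272 CPM, and SEMA6A, a membrane semaphorin, from 41.1, 54.7 and 65.9 CPM to 238, 334 and 426 CPM. EFNA5, an ephrin, fell from 47.3, 57.4 and 67.5 CPM to 7.65, 11.7 and 15.5 CPM. Of 53 primary cilium genes, 25 rose and 9 fell (median 0.18), 8 and 2 of them beyond 1.5-fold. TMEM67, of the transition zone, changed by 2.55 ± 0.15 SE, and RPGR, of the same region, by -0.99 ± 0.08 SE. IFT88 changed by 0.29 ± 0.13 SE, which was not called without replicates 1, 2 or 3 (0.26, 0.34 and 0.25, adjusted p = 0.15, 0.057 and 0.14). Of 14 reference genes, 4 rose and 5 fell (median -0.05). TBP was not called (-0.22 ± 0.13 SE, adjusted p = 0.12) but was without replicate 1 (-0.41, adjusted p = 0.024). ACTB, called at 0.16 ± 0.06 SE, was not called without replicate 2 (0.04, adjusted p = 0.50). YWHAZ, often used as a constant reference, had 964, 1018 and 1084 CPM in DMSO and 552, 607 and 689 CPM in MAPKi, without overlap.

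Among genes called beyond 1.5-fold with at least 50 CPM on average in the higher pretreatment and no overlap, the largest rises were those of ANGPTL7, SAMD11, CRYGS, MYLK, CRYAB and DCT. ANGPTL7, a secreted angiopoietin-like protein (chromosome 1, 11189355 to 11195981, antisense to MTOR), had 6 counts in the 12 DMSO libraries and 221, 365 and 443 CPM in MAPKi. CRYAB, a small heat shock protein, rose from 1.58, 2.81 and 4.36 CPM to 64.3, 104 and 180 CPM, and CRYGS, a lens crystallin (chromosome 3, 186538441 to 186546702, overlapped by TBCCD1 on the same strand), from 0, 1.01 and 3.49 CPM to 36.4, 65.9 and 100.5 CPM. SAMD11 (antisense to NOC2L) went from 0, 0.511 and 1.23 CPM to 41.7, 79.2 and 106 CPM. The largest falls were those of SPRY4, DUSP6, SYTL5, ETV5, SPRR2D and SPRY2. SYTL5, a partner of Rab27 (chromosome X, 38006553 to 38128819), had 59.5, 87.4 and 107 CPM in DMSO and 0.365, 1.43 and 2.26 CPM in MAPKi, and SPRR2D, an epidermal envelope protein (chromosome 1, 153039732 to 153041931), 39.7, 49.5 and 63.2 CPM against 0.279, 0.796 and 2.07 CPM.

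The most even changes of at least 2-fold were those of ERBB3, LOC105379362, ASAH1 and UTRN upward and TOP1, EIF3J, MTHFD2 and GNL3 downward, chosen for the smallest span of their 4 changes, which is therefore a description. TOP1, DNA topoisomerase I (chromosome 20, 41028822 to 41124487), had 846, 933 and 1098 CPM in DMSO and 375.2, 436 and 525 CPM in MAPKi, with changes of -1.13, -1.13, -1.13 and -1.10 at 0, 1, 3 and 5 h. EIF3J, a translation initiation factor (chromosome 15, 44537125 to 44563029), had 414, 444 and 484 CPM against 177, 196 and 219 CPM, with changes between -1.20 and -1.16. GNL3, a nucleolar GTPase with snoRNA genes inside it, went from 96.01, 118 and 160 CPM to 26.8, 38.7 and 48.6 CPM. UTRN, the paralog of dystrophin (chromosome 6, 144285335 to 144853034), rose from 37.4, 53.1 and 68.7 CPM to 113, 131 and 150 CPM, and ASAH1, the lysosomal acid ceramidase, from 27.4, 32.9 and 39.3 CPM to 59.3, 75.5 and 90.9 CPM.

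**Figure D3:**
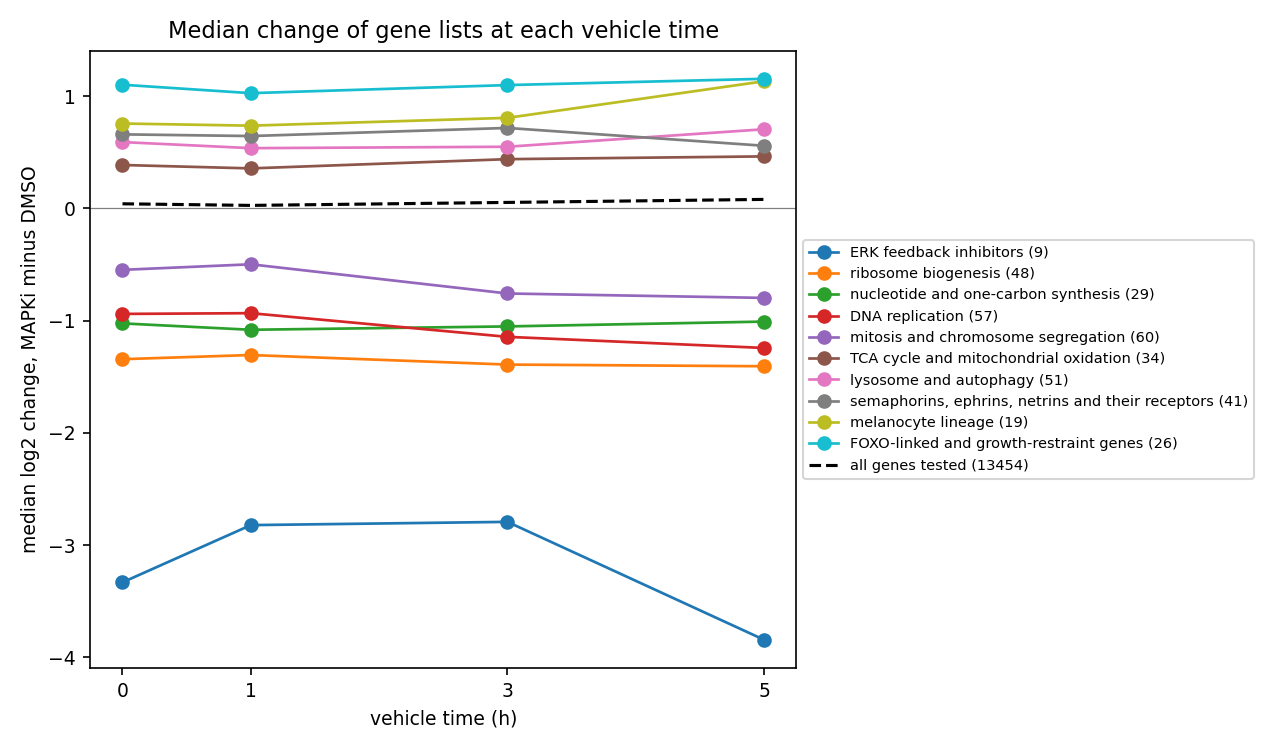
Median log2 change, MAPKi minus DMSO, of 10 gene lists (number of tested members in brackets) and of all genes tested (dashed) at 0, 1, 3 and 5 h of vehicle, each time with its own 3 MAPKi and 3 DMSO libraries. Ribosome biogenesis stays between -1.41 and -1.31, while DNA replication goes from -0.94 at 0 h to -1.24 at 5 h and mitosis from -0.55 to -0.80; these medians were not tested against each other.

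A test of whether the MAPKi effect differed between the 4 times called 113 genes, 0.840% of those tested (edgeR, interaction with 3 degrees of freedom), and 1891 had an unadjusted p under 0.05. Of the 113, 68 were also called beyond 1.5-fold over all times, and 32 had changes of both signs among the 4 times. This count was 14, 15 and 17 without all libraries of replicate 1, 2 or 3, 790 with a replicate block, and 415 in DESeq2. Within the lists, 3 of 57 replication genes were called, MCM3, MCM7 and CDT1, all lower at each time and furthest at 5 h (-1.86, -1.90 and -2.08, against -1.13, -1.17 and -1.07 at 0 h). The 5 of 60 mitosis genes called, TOP2A, CDC25B, BIRC5, INCENP and PTTG1, also had their lowest change at 5 h. These 8 were named after their values were seen. Other lists held called members too. Among them were 2 of 9 ERK feedback inhibitors (DUSP4 and DUSP6) and 3 of 17 ERK-responsive genes (FOSL1 and JUN included). So were 3 of 26 FOXO-linked genes and 3 of 31 cholesterol and fatty acid genes. CCND1, NOP56, DCT and CTSD were not called, with interaction adjusted p-values of 0.94, 0.49, 0.90 and 0.91. DUSP6, DUSP4 and GDF15, given above with a single common change, were among those called. Their interaction adjusted p-values were 0.0021, 0.0013 and 0.017. The changes of DUSP6 at 0, 1, 3 and 5 h were -8.26, -5.865, -8.05 and -7.40.

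For several of the called genes the DMSO cells moved over the hours and the MAPKi cells did not, or less. JUN in DMSO was 22.4 ± 1.45, 34.5 ± 3.08, 58.4 ± 1.22 and 53.5 ± 9.59 CPM (SD, n = 3) at 0, 1, 3 and 5 h, and 271 ± 10.3, 250 ± 28.8, 288 ± 28.6 and 225 ± 7.72 CPM in MAPKi. CCN2 rose in DMSO from 25.3 ± 6.13 CPM at 0 h to 189 ± 17.3 at 3 h (SD, n = 3), and in MAPKi from 10.9 ± 1.85 to 59.5 ± 10.5 CPM. Its log2 change was -1.25 at 0 h, 0.01 at 1 h and -1.91 at 5 h, so that between 0 and 1 h CCN2 rose more in MAPKi. MITF in DMSO went from 358 ± 15.0 CPM at 0 h to 153 ± 10.6 at 5 h, and in MAPKi from 505 ± 58.6 to 377 ± 66.2 CPM (SD, n = 3), with a change of 1.298 at 5 h against 0.50 at 0 h. In CDT1, a licensing factor of replication, it was MAPKi that moved, from 35.2 ± 3.44 CPM at 0 h to 19.6 ± 2.55 at 5 h, with 73.8 ± 4.33 and 82.9 ± 12.7 CPM in DMSO (SD, n = 3). GBP1, an interferon-inducible GTPase, likewise rose in MAPKi, from 4.95 ± 0.575 to 30.1 ± 3.93 CPM, while DMSO had 3.58 ± 0.657 and 4.31 ± 0.793 CPM (SD, n = 3). FOSL1, whose levels were always lower in MAPKi, came closest to DMSO at 3 h, at 33.4 ± 5.95 against 110 ± 10.3 CPM (SD, n = 3).

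**Figure D4:**
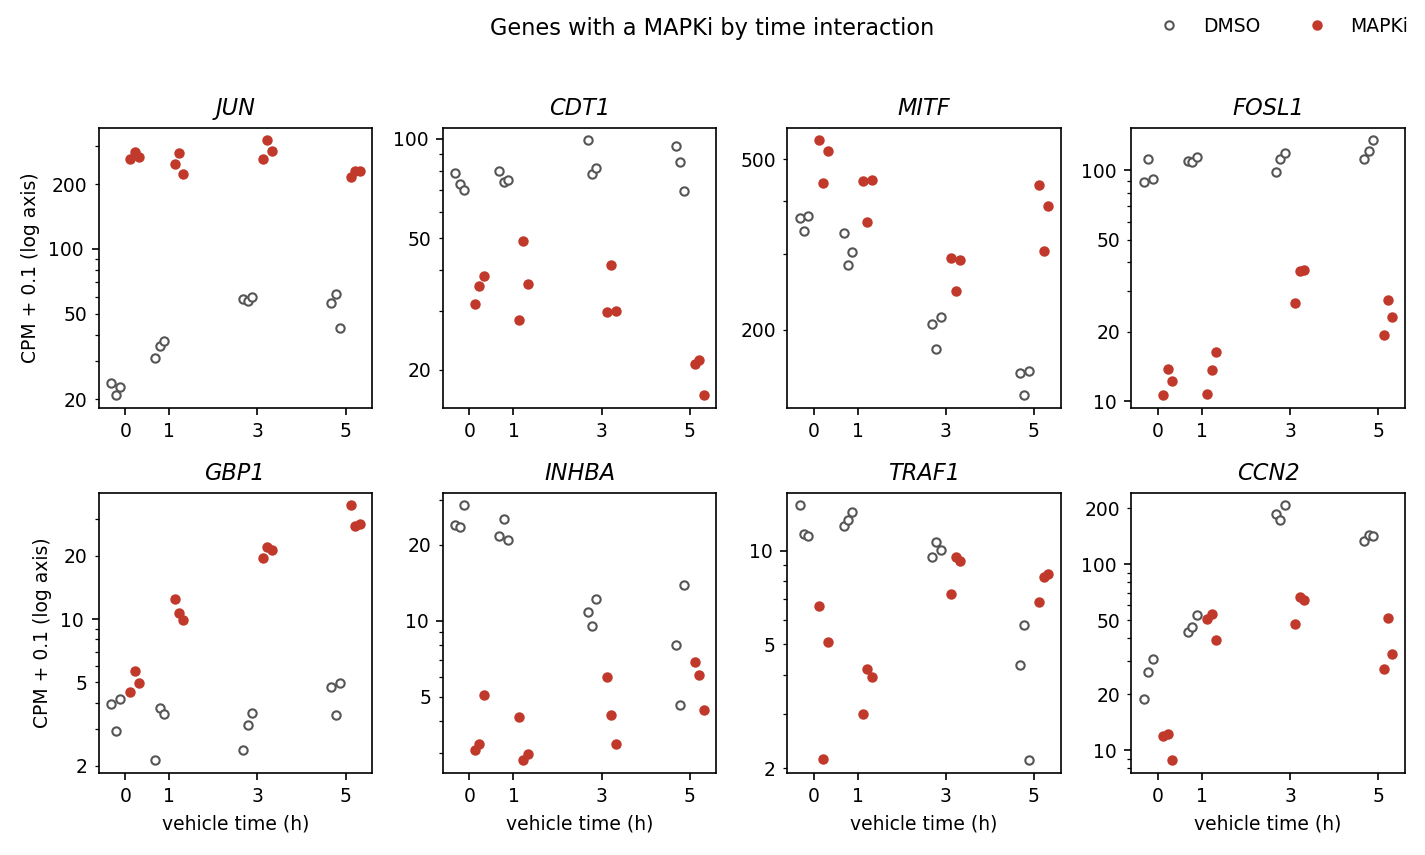
Level of 8 genes called in the test of interaction between MAPKi and time, as CPM plus 0.1 on a log axis, against vehicle time in hours, with open grey circles for DMSO and filled red circles for MAPKi; each circle is 1 library, 3 per group. JUN climbs in DMSO from 22.4 to 53.5 CPM (means of 3) and GBP1 climbs in MAPKi from 4.95 to 30.1 CPM, while INHBA and TRAF1 decline in DMSO.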

How the data were processed

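RNA of 24 libraries was compared, 12 per pretreatment. The authors deposited raw counts per gene; per the labels and methods, reads were trimmed with fastp 0.20.1, aligned with HISAT2 2.2.1 to GRCh38.p13 and counted with HTSeq 0.13.5. No molecular identifiers were used, so counts hold PCR copies. Of 44659 entries, 20554 had no count in these libraries and 2713 genes had repeated entries for alternate loci, whose reads may be split. Columns without a sample numbered 0.

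Counts were fitted with edgeR 4.0.16 (quasi-likelihood, filterByExpr over the 8 groups, TMM) in R 4.3.3 with limma 3.58.1, with time as a term. Calls used Benjamini-Hochberg adjusted p under 0.05, and glmTreat for changes beyond 1.5-fold. The interaction was an F test with 3 degrees of freedom. CPM used TMM library sizes. The scripts were tested on simulated data. No pair of libraries within a group was a copy, as the chi-square per degree of freedom between replicates was 3.31 to 15.8. Pairs from different groups were not compared in this way. Coordinates are those of GENCODE gene models on GRCh38, matched by symbol.

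The libraries compared, the gene lists and the tests were chosen with earlier results of these data known. Named genes were the key members of each list, its largest called rise and fall, the 6 largest rises and falls with at least 50 CPM and no overlap, the 6 largest and 6 smallest changes at 5 h less those at 0 h among interaction genes with at least 10 CPM, and the 4 steadiest rises and falls of at least 2-fold. Alternatives were DESeq2 1.42.0, other scalings, no filter, a replicate block, leaving out each replicate number, all 96 libraries and no time term. A 2-fold threshold and the contrast at each time, from the fit of all 24 libraries, were also used. Some genes named by this rule are not reported here.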

Additional observations from a re-analysis of the deposited data

Results flagged for a closer look

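The MAPKi effect differed between the 4 vehicle times for 113 genes, by the edgeR interaction test with Benjamini-Hochberg adjustment. The change at 5 h was above that at 0 h for 63 of them and below it for 50. If each time was 1 culture batch, time and batch cannot be told apart here. Among genes of at least 10 CPM in a group, the change at 5 h less that at 0 h (log2) was lowest for CEBPD at -1.58, JUN at -1.51, KLF5 at -1.14, MIR222HG at -1.08, CDT1 at -1.02 and TRIM52-AS1 at -0.931. It was highest for DLX5 at 3.09, OLIG2 at 2.86, LRATD2 at 2.48, TRAF1 at 2.43, GBP1 at 2.32 and INHBA at 2.05. Of these 12, JUN was called under all 9 alternatives to this test, with a highest adjusted p of 0.032 without replicate 1. The others were called in 5 to 7 of the 9, and their highest adjusted p ran from 0.098 (GBP1, without replicate 3) to 0.64 (TRIM52-AS1, without replicate 2). CEBPD, a transcription factor of stress responses, had means of 15.6 ± 3.41 CPM at 0 h and 34.9 ± 7.16 CPM at 5 h in DMSO, and 24.7 ± 1.83 and 18.6 ± 3.94 CPM in MAPKi (SD, n = 3). TRAF1, an adaptor of TNF receptors, had 12.04 ± 1.58 and 3.96 ± 1.83 CPM in DMSO and 4.53 ± 2.30 and 7.73 ± 0.853 CPM in MAPKi (SD, n = 3).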

How the results depend on the processing

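The count for MAPKi against DMSO over all vehicle times stayed within 1.5 times of 9715 under each alternative run, and the count for MAPKi against DMSO beyond 1.5-fold did so except at a 2-fold threshold (2154). The interaction count of 113 became 415 in DESeq2, 868 with no filter, 790 with a replicate block, 259 with all 96 libraries and 14 to 17 without each replicate number. To look for pairing, the deviations of each library from its own group mean (log CPM) were correlated across genes. Within a time, these deviations correlated by -0.261 to 0.489 between same-numbered MAPKi and DMSO libraries. Between different-numbered ones they correlated by -0.515 to 0.477. The main fit did not use the numbers. Replicate 1 had the highest share of RNR1 and RNR2 in every group, so the numbers may mark a shared block that the main fit leaves out. Adding the number as a block gave 9895 and 4498 calls and changed no call of the 140 named genes tested. DESeq2 and its size factors changed none of these calls either. Single times, with fewer libraries, called fewer list members. Members lower were 7 at 3 h for receptors and ligands, 15 at 0 h for excision repair, and 9 at 0 h and 9 at 5 h for aspartate metabolism. Members higher were 6 at 3 h and 6 at 5 h for glycolysis, 8, 10 and 10 at 0, 1 and 3 h for cholesterol synthesis, 2 at 0, 3 and 5 h for antigen presentation, and 14 at 0 h and 14 at 3 h for the cilium. NF-kB members lower were 5 with no time term. The sign turned for MAP2K1 (0.55), TRIM52-AS1 (-0.15) and TRAF1 (1.06) at 5 h, FBL (0.14) and CCN2 (0.008133) at 1 h, CEBPD (0.67) at 0 h and KLF5 (-0.65) at 3 h; the causes were not tested. With 3 libraries per group and time, genes near or below 1 CPM are the least certain.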
